A study of Mus musculus with 31 samples.

Results

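The 50 genes described here are transcripts typical of the adult mouse gut epithelium, of pancreatic acinar cells and of plasma cells that were found at high levels in ventral diencephalon libraries. They were taken from a fixed list of symbols, out of 34865 genes in the bulk table, and all 50 were present in it. By the cell type they are best known from, 9 are Paneth cell genes, 4 are Reg lectins, 6 are goblet cell genes, 13 are enterocyte genes, 14 are acinar genes, 3 are plasma cell genes and 1, H2-Aa, encodes an antigen-presenting molecule of MHC class II. The list was drawn up from the difference between ventral and dorsal libraries, so that difference is given below as a description, without a test.

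Bulk RNA-seq was made from ventral diencephalon (3 libraries) and dorsal diencephalon (3 libraries) of wild-type mice at E10.5 (E, embryonic day), which carry no allele or agent named in the labels; the number of embryos behind a library is not given in the sources used here. Smart-seq2, a full-length method for very small RNA inputs, was made from medial cortex cells at E11.5. Of these libraries 13 are labelled Axin2-/- and 12 Axin2+/+, and both come from Emx1-CreERT2::MADM-11::Axin2LacZ/+ mice, in which a Cre driven from the cortical gene Emx1 recombines chromosome 11 and separates mutant from wild-type daughter cells. The labels name no animal for these libraries.

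The intestinal epithelium renews itself from crypt stem cells into absorptive enterocytes, mucus-secreting goblet cells and, at the crypt base, Paneth cells that release antimicrobial peptides. Acinar cells of the pancreas make digestive enzymes, mostly as inactive precursors, and plasma cells below the gut epithelium secrete immunoglobulin A. All are known as programmes of differentiated endodermal or immune cells and none is a known programme of the embryonic diencephalon.

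The ventral libraries held 20838002, 19095390 and 17769770 counts and the dorsal libraries 20622702, 20549847 and 17604166. Levels are given as CPM, counts relative to the library's total after TMM scaling, and as mean ± SD over 3 libraries. Nkx2-1 and Tcf7l2, from a list of 15 neural and diencephalic genes, differed between the regions. Nkx2-1, a hypothalamic regulator, stood at 205 ± 73.3 CPM in the ventral libraries and 9.82 ± 1.27 CPM in the dorsal ones (log2 fold change 4.38, standard error 0.30, adjusted p = 0.000112, edgeR quasi-likelihood test, higher in 3 of 3 ventral libraries). Tcf7l2, a thalamic one, was at 67.5 ± 7.29 CPM in the ventral libraries and 1105 ± 110.5 CPM in the dorsal ones (log2 fold change -4.03, standard error 0.17, adjusted p = 3.08e-05, edgeR). Of the 15 neural and diencephalic genes 9 were higher and 4 lower in ventral, against 9.54% and 7.14% of all 14701 genes tested. A dorsal mean under 1 CPM, the minimum for testing, was found for 3 of the 15, and a ventral mean under it for 1. Those reached the minimum through the other region. The list summed to 4667, 4333 and 4777 CPM in the ventral libraries and 4044, 4167 and 3679 CPM in the dorsal libraries. In bulk tissue, fewer cells of a type and less RNA per cell cannot be told apart. The ventral and dorsal columns also carry different letters in their names, so any preparation batch that follows the letter and the region cannot be told apart.

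Counted together, the 50 genes took 1.07%, 1.87% and 0.532% of all counts in ventral libraries 1, 2 and 3, against 0.00221%, 0.00231% and 0.00333% in dorsal libraries 1, 2 and 3. Their summed level was 11027, 19276 and 5258 CPM in the ventral libraries and 21.4, 22.8 and 33.3 CPM in the dorsal libraries. Every gene was higher in each of the 3 ventral libraries than in any dorsal library. All 50 reached the minimum of 1 CPM for testing and were called higher in ventral. Of all 14701 genes tested 9.54% were called higher and 7.14% lower in ventral, and 20% had every ventral library above every dorsal library. The numbers behind the first pair of shares, 1403 higher and 1050 lower, were 920 and 530 without ventral library 1, 899 and 599 without ventral library 2, 839 and 500 without dorsal library 1 and 909 and 561 without dorsal library 2, and 1695 were lower without ventral library 3. Because the list was chosen on this contrast, nothing is read from those counts. The median fitted log2 fold change was 9.02 over the 50 genes and -0.0062 over all genes tested. Mean levels ran from 9.95 ± 8.43 CPM for Krt20 to 1755 ± 1075 CPM for Reg3b in ventral libraries, whereas no gene had a mean above 2.83 CPM in dorsal libraries.

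**Figure D1:**
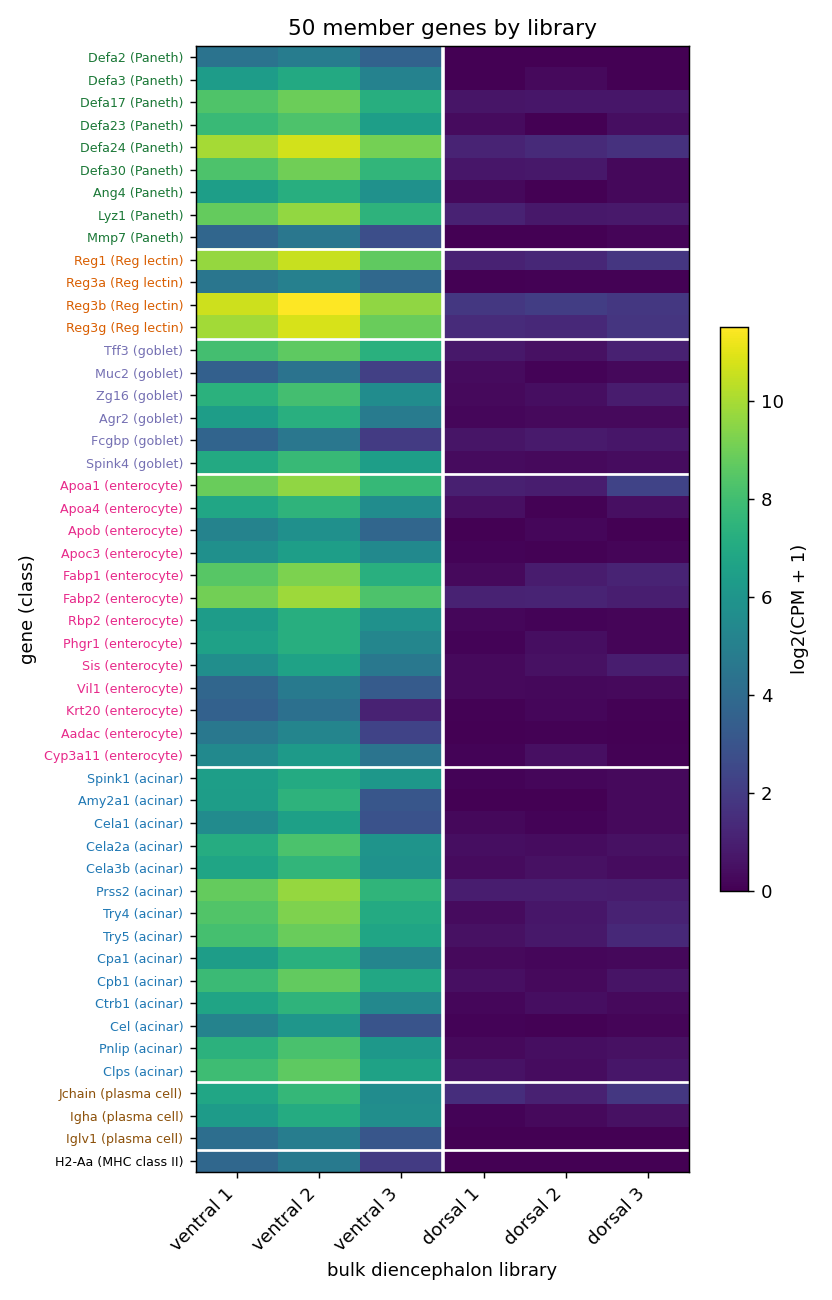
Level of each of the 50 genes (rows, grouped and coloured by class) in the 3 ventral and 3 dorsal bulk libraries (columns), as log2(CPM + 1) on the colour scale. The ventral columns run from 1.11 CPM (Krt20, library 3) to 2902 CPM (Reg3b, library 2), and in every row library 2 is the brightest and library 3 the darkest of the ventral columns.

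Among the Paneth cell genes, 6 encode alpha-defensins, small cysteine-rich peptides that are secreted into the crypt and kill bacteria. Defa24 was at 1006, 1680.4 and 539 CPM in ventral libraries 1, 2 and 3, against 1.22, 1.58 and 2.15 CPM in dorsal libraries 1, 2 and 3. It was the highest of all 50 genes when levels were divided by exon length, at 2566 ± 1369 CPM per kb in ventral libraries. Exon length here covers every annotated exon of a gene and can exceed the length of its mRNA. Defa30 reached 316, 509 and 188 CPM in the ventral libraries, against 0.611, 0.672 and 0.1699 CPM in the dorsal libraries. Defa17 reached 318, 487 and 147 CPM in the ventral libraries, against 0.564, 0.624 and 0.623 CPM in the dorsal libraries. Per length, Defa30 was at 848 ± 406 CPM per kb and Defa17 at 799 ± 428 CPM per kb in ventral libraries. The difference is smaller than either SD, but these SDs are spreads over libraries that both genes share. Defa23 stood at 205 ± 112 CPM in the ventral libraries and 0.207 ± 0.182 CPM in the dorsal ones. Defa3 was at 80.8 ± 46.5 CPM in the ventral libraries and 0.08004 ± 0.139 CPM in the dorsal ones. Defa2 had no dorsal count and 19.8, 27.7 and 11.2 CPM in the ventral libraries, which is at least 389-fold higher against a floor of 3 counts over the dorsal region.

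These defensin genes lie within 1 cluster on chromosome 8 and their transcripts are near copies, so how reads were divided among them is uncertain. The last 96 coding bases before the stop codon are shown for 5 of them from GENCODE M21 on GRCm38, because this stretch encodes most of the mature peptide and shows how little separates the genes. Capitals mark the 8 positions that differ among the 5, and the other 88 are the same in all.
Defa3: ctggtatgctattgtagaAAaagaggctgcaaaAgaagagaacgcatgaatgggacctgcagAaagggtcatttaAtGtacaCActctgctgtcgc
Defa17: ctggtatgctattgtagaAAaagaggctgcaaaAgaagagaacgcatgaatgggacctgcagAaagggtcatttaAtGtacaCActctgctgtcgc
Defa23: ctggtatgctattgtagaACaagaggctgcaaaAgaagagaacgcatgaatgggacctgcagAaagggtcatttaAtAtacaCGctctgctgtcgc
Defa24: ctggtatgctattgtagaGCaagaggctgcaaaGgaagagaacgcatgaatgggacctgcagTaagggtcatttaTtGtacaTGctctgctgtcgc
Defa30: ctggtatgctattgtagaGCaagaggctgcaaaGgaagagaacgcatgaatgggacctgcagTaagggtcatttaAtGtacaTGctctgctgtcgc
Defa3 (chromosome 8, 21287409 to 21288377, plus strand) and Defa17 (chromosome 8, 21655780 to 21656735, plus strand) are identical over these bases, and the least alike pairs, Defa24 (chromosome 8, 21734494 to 21735471, plus strand) with either of them, share 92.7%. Of all stretches of 50 bases in the transcripts, 100% of those of Defa2, 94.8% of Defa23, 92.2% of Defa3 and 91.95% of Defa17 also occur in another annotated gene, against 52.4% for Defa30 and 28.1% for Defa24. The values of the first 4 are therefore values of the family more than of a single gene. Defa23 (chromosome 8, 21055047 to 21056016, plus strand) and Defa30 (chromosome 8, 21134642 to 21135598, plus strand) lie within the same cluster.

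The other Paneth cell genes do not depend on that split to the same degree. Lyz1, the Paneth cell lysozyme, which cleaves bacterial cell walls, was at 439, 807 and 173 CPM in the ventral libraries, against 1.17, 0.672 and 0.736 CPM in the dorsal libraries, although 16.1% of its 50-base stretches also occur in Lyz2, the macrophage lysozyme. Ang4, a bactericidal ribonuclease, was at 95.6 ± 46.9 CPM in the ventral libraries and 0.119 ± 0.104 CPM in the dorsal ones. Mmp7, the protease that activates mouse alpha-defensins, had 13.1, 22.3 and 5.79 CPM in the ventral libraries and 2 counts over the dorsal libraries, a ventral to dorsal rate ratio of 412 with a 95% counting interval of 114 to 3411. Summed over the 9 Paneth cell genes, levels were 2499, 4116 and 1239 CPM in the ventral libraries and 4.04, 3.79 and 4.31 CPM in the dorsal libraries.

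The Reg genes encode secreted C-type lectins, of which Reg3b and Reg3g bind and kill bacteria at the intestinal surface and Reg1 is abundant in pancreatic acinar cells. Reg3b was at 1589, 2902 and 772 CPM in ventral libraries 1, 2 and 3, against 2.68, 3.22 and 2.61 CPM in dorsal libraries 1, 2 and 3. Reg3g was at 966, 1771 and 466 CPM in the ventral libraries, against 1.69, 1.54 and 2.44 CPM in the dorsal libraries. Reg1 was at 829, 1487 and 415 CPM in the ventral libraries, against 1.13, 1.44 and 2.49 CPM in the dorsal libraries. In each of these genes the lowest ventral library was more than 100 times the highest dorsal library. Reg3a, their neighbour on chromosome 6, was far lower, at 21.8, 31.4 and 13.8 CPM in the ventral libraries with 2 counts over the dorsal libraries (rate ratio 669, 95% counting interval 185 to 5528). Per length, Reg3b came to 1536 ± 941 CPM per kb, Reg1 to 1007 ± 598 CPM per kb, Reg3g to 505 ± 311 CPM per kb and Reg3a to 27.1 ± 10.7 CPM per kb in ventral libraries. Reg3a lies below the range of the others. The SDs are spreads over libraries that the genes share, so their overlap does not compare the genes within a library. In each ventral library Reg3b was above Reg1, also per length. None of the 50-base stretches of Reg3a, Reg3b or Reg3g occurs in another gene. The 4 genes (Reg3b, chromosome 6, 78370657 to 78373466, plus strand; Reg3a, chromosome 6, 78380709 to 78383827, plus strand; Reg1, chromosome 6, 78422711 to 78428667, plus strand; Reg3g, chromosome 6, 78466269 to 78468872, minus strand) together held the largest part of the counts, 30.9%, 32.1% and 31.7% of the counts of the 50 genes in ventral libraries 1, 2 and 3.

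Goblet cell genes encode mucus components and the factors that help to fold and package them. Tff3, a trefoil peptide that protects the mucosa, was at 269.7, 398 and 159 CPM in ventral libraries 1, 2 and 3, against 0.658, 0.432 and 1.08 CPM in dorsal libraries 1, 2 and 3. Zg16, a lectin that binds bacteria in mucus, was at 159.7, 263 and 47.4 CPM in the ventral libraries, against 0.235, 0.336 and 0.8497 CPM in the dorsal libraries. Spink4 stood at 142 ± 64.01 CPM in the ventral libraries and 0.268 ± 0.0245 CPM in the dorsal ones. Agr2, the disulphide isomerase needed for mucin folding, was at 88.1 ± 63.2 CPM in the ventral libraries and 0.203 ± 0.0538 CPM in the dorsal ones. The mucin itself was low for its length: Muc2, the gel-forming mucin, was at 10.7, 19.7 and 3.505 CPM in the ventral libraries, against 0.282, 0.0961 and 0.1699 CPM in the dorsal libraries, or 1.59 ± 1.14 CPM per kb in ventral libraries, the second lowest of the 50 genes. Fcgbp, a mucin-bound protein, was the lowest at 1.19 ± 0.924 CPM per kb, with 11.9, 22.4 and 3.004 CPM in the ventral libraries and 0.564, 0.768 and 0.623 CPM in the dorsal libraries. Its dorsal mean was 5.24% of its ventral mean, the largest such share of the 50 genes.

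Enterocyte genes covered fat handling, digestion at the brush border and the cytoskeleton. The lipid-binding proteins Fabp2 and Fabp1, which carry fatty acids inside the cell, were both high. Fabp2 was at 528, 911 and 309 CPM in the ventral libraries, against 1.13, 1.201 and 0.963 CPM in the dorsal libraries. Fabp1 was at 364, 608 and 152 CPM in the ventral libraries, against 0.235, 0.816 and 1.19 CPM in the dorsal libraries. The lipoprotein gene Apoa1 was at 462, 778 and 211 CPM in the ventral libraries, against 1.03, 0.864 and 3.91 CPM in the dorsal libraries. Of the other genes of lipoprotein assembly, Apoa4 stood at 112 ± 65.7 CPM in the ventral libraries and 0.273 ± 0.195 CPM in the dorsal ones. Apoc3 stood at 61.1 ± 22.6 CPM in the ventral libraries and 0.0851 ± 0.0335 CPM in the dorsal ones. Apob, the scaffold of chylomicrons, stood at 33.7 ± 20.7 CPM in ventral libraries with 3 counts over the dorsal libraries (rate ratio 675, 95% counting interval 231 to 3278). Rbp2, which binds retinol, was at 94.1 ± 46.7 CPM in the ventral libraries and 0.117 ± 0.0226 CPM in the dorsal ones. Phgr1 was at 93.3 ± 54.3 CPM in the ventral libraries and 0.181 ± 0.135 CPM in the dorsal ones. Each of these was above 10 CPM in every ventral library and below 4 CPM in every dorsal library. Sis, the brush-border enzyme that splits sucrose, was at 58.00 ± 38.2 CPM in the ventral libraries and 0.524 ± 0.345 CPM in the dorsal ones. Vil1, the actin-bundling protein of microvilli, was at 15.7 ± 8.48 CPM in the ventral libraries and 0.218 ± 0.0227 CPM in the dorsal ones. The drug-metabolising enzyme Cyp3a11 was at 46.7 ± 28.5 CPM in the ventral libraries and 0.178 ± 0.179 CPM in the dorsal ones. Krt20, a keratin of differentiated epithelium, had 10.8, 17.9 and 1.11 CPM in the ventral libraries, and Aadac, a lipase-like esterase, 23.3, 36.7 and 3.95 CPM with 1 count over the dorsal libraries (rate ratio 1287, 95% counting interval 231 to 50873). Ventral library 3 was the lowest ventral library for both, by a wide margin.

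Acinar genes included each main class of digestive enzyme. Prss2, Try4 and Try5 are trypsinogens, of which Prss2 was at 444, 831 and 186 CPM in ventral libraries 1, 2 and 3, against 0.892, 0.913 and 0.8497 CPM in dorsal libraries 1, 2 and 3. Try4 was at 363 ± 248 CPM in the ventral libraries and 0.6797 ± 0.428 CPM in the dorsal ones. Try5 was at 285 ± 181 CPM in the ventral libraries and 0.856 ± 0.549 CPM in the dorsal ones. Of the 50-base stretches of Try4 and Try5, 65.6% and 47.6% occur in another gene, so the split between trypsinogens is uncertain. Cpb1 and Cpa1, carboxypeptidases that trim peptides from the end, were both present. Cpb1 was at 259 ± 159 CPM in the ventral libraries and 0.375 ± 0.135 CPM in the dorsal ones. Cpa1 was at 92.1 ± 60.3 CPM in the ventral libraries and 0.183 ± 0.0468 CPM in the dorsal ones. The chymotrypsinogen Ctrb1 was at 107 ± 69.7 CPM in the ventral libraries and 0.235 ± 0.0979 CPM in the dorsal ones, and the elastases Cela2a, Cela3b and Cela1 were at 168 ± 124 CPM, 117 ± 65.5 CPM and 47.8 ± 42.6 CPM in ventral libraries, with dorsal means of 0.357, 0.332 and 0.170 CPM. Fat-digesting genes were as clearly represented. Pnlip, pancreatic lipase, was at 166, 297 and 69.4 CPM in the ventral libraries, against 0.235, 0.336 and 0.453 CPM in the dorsal libraries, and its cofactor Clps at 241, 401 and 99.02 CPM in the ventral libraries, against 0.4697, 0.288 and 0.623 CPM in the dorsal libraries. Cel, which hydrolyses cholesterol esters, was at 35.8 ± 29.3 CPM in the ventral libraries and 0.0851 ± 0.0335 CPM in the dorsal ones. Spink1, the trypsin inhibitor packed with the zymogens, was at 94.5 ± 33.01 CPM in the ventral libraries and 0.155 ± 0.06698 CPM in the dorsal ones. Amy2a1, a pancreatic amylase, was at 84.5, 173 and 7.57 CPM in ventral libraries 1, 2 and 3, against 0, 0 and 0.227 CPM in dorsal libraries 1, 2 and 3. Its spread was the widest of the 50 genes, with an SD of 93.7% of the ventral mean, and 94.9% of its 50-base stretches are shared with Amy2a2.

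The plasma cell genes serve antibody secretion. Jchain, which joins immunoglobulin A into dimers, was at 109.7, 204 and 46.6 CPM in ventral libraries 1, 2 and 3, against 1.83, 1.06 and 2.66 CPM in dorsal libraries 1, 2 and 3. Igha, the constant region of the immunoglobulin A heavy chain, was at 78.7, 134 and 50.6 CPM in the ventral libraries, against 0.0939, 0.2401 and 0.453 CPM in the dorsal libraries. Iglv1, a lambda light chain variable segment, had 16.7, 28.7 and 7.51 CPM in the ventral libraries and no dorsal count, at least 352-fold higher. H2-Aa, an MHC class II chain, had 13.4, 26.1 and 2.95 CPM and no dorsal count either, at least 282-fold higher. In Jchain the dorsal libraries were not near 0, with a mean of 1.54% of the ventral mean.

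**Figure D2:**
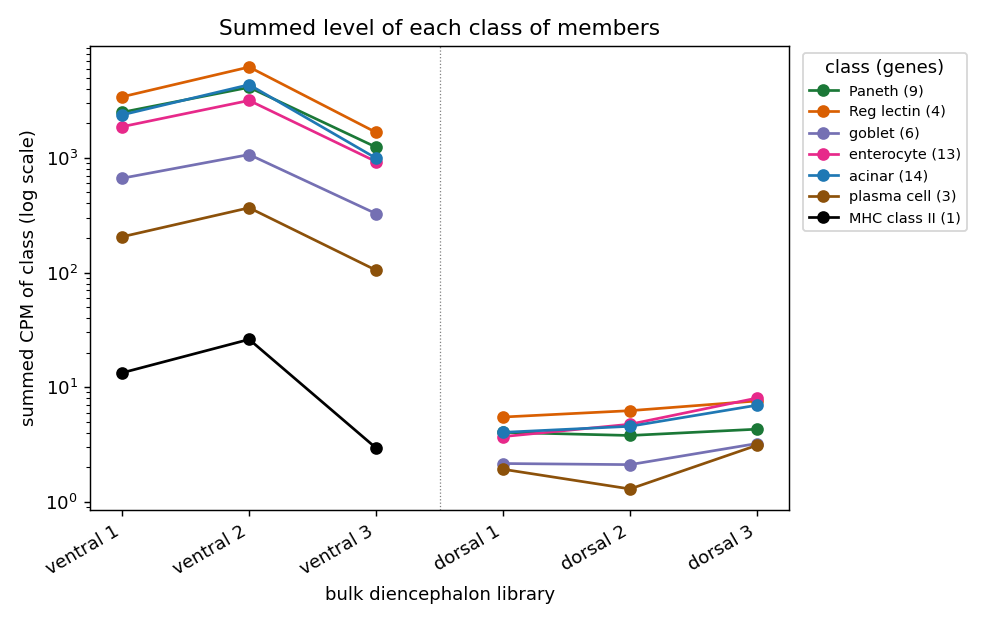
Summed CPM of each class of the 50 genes (y axis, log scale; number of genes in the legend) in each bulk library (x axis), with points joined within a region only. Reg lectins are highest in ventral libraries, at 3406, 6192 and 1666 CPM, and the 6 classes with dorsal counts lie between 1.30 and 8.04 CPM in dorsal libraries; H2-Aa has no dorsal count and no dorsal point.

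The list was drawn up with earlier results of these data known, so levels among the 3 ventral libraries are given as a description. Over these libraries the 50 genes varied together. Genes measured in the same 3 libraries are not independent of each other. All 50 were highest in ventral library 2, intermediate in library 1 and lowest in library 3. Of 13213 other tested genes with at least 100 ventral counts and none of the 3 ventral libraries at 0, 3106 (23.5%) had that order. The summed level in library 2 was 1.75 times that in library 1, and in library 3 it was 0.477 times that in library 1. The median gene of the list had ratios of 1.73 and 0.438, and the median of the other tested genes had ratios of 0.995 and 1. By class, the sum in library 2 over library 1 was 1.65 for Paneth, 1.82 for Reg, 1.61 for goblet, 1.69 for enterocyte, 1.83 for acinar and 1.79 for plasma cell genes. The sum in library 3 over library 1 was 0.496, 0.489, 0.491, 0.496, 0.419 and 0.510 in the same order of classes. These sums are carried by the most abundant genes of each class. The median gene of a class had a ratio of library 3 to library 1 of 0.461 for Paneth, 0.493 for Reg, 0.321 for goblet, 0.456 for enterocyte, 0.415 for acinar and 0.449 for plasma cell genes, and H2-Aa had 0.221.

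The make-up of the counts was compared as well. Paneth cell genes held 22.7%, 21.4% and 23.6% of the counts of the 50 genes in ventral libraries 1, 2 and 3. Acinar genes held 21.5%, 22.5% and 18.9%, enterocyte genes 16.96%, 16.4% and 17.63%, goblet cell genes 6.02%, 5.54% and 6.20%, and plasma cell genes 1.86%, 1.90% and 1.99%. The exact 95% binomial intervals of the acinar share, 21.3% to 21.7% in library 1, 22.4% to 22.7% in library 2 and 18.6% to 19.1% in library 3, do not overlap, so the lower acinar share of library 3 is beyond counting error. These intervals cover counting error only. In the dorsal libraries, which held 455, 474 and 587 counts of the 50 genes in all, acinar genes made up 18.9%, 20.04% and 20.95% and Reg genes 25.7%, 27.4% and 22.8%. Plasma cell genes made up 9.01%, 5.70% and 9.37% there, mostly through Jchain, which had 108 of the 123 counts.

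**Figure D3:**
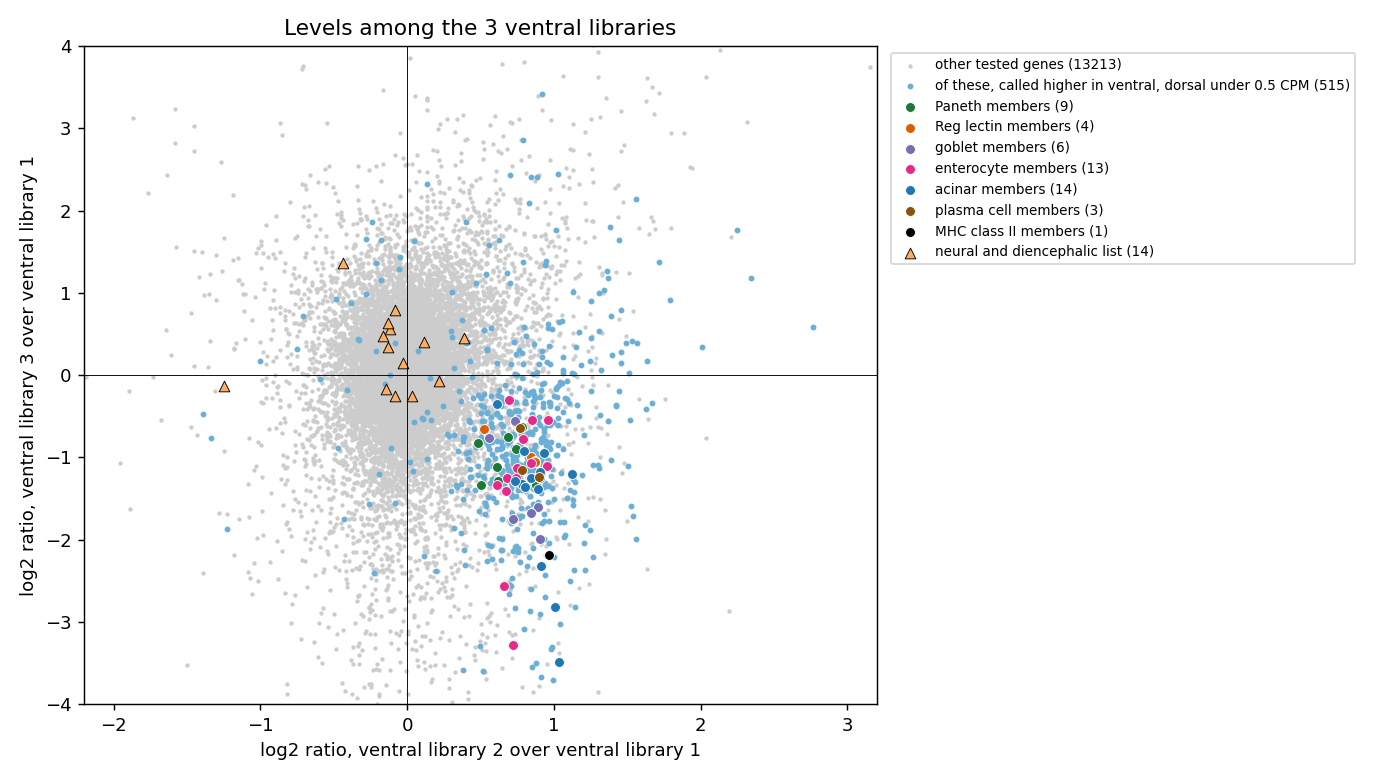
Level in ventral library 2 over library 1 (x axis, log2 ratio) against ventral library 3 over library 1 (y axis, log2 ratio) for each of the 50 genes, coloured by class, for 13213 other tested genes in grey (219 lie outside the axes), for those of them called higher in ventral with under 0.5 CPM in dorsal in light blue, and for 14 neural and diencephalic genes as triangles. All 50 genes lie in the lower right part of the plot, with x values from 0.49 to 1.13 and y values from -3.48 to -0.30.

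Single genes varied most in ventral library 3. Its ratio to library 1 was lowest for Amy2a1 (0.0896), Krt20 (0.103), Cela1 (0.142), Aadac (0.170), Cel (0.201) and H2-Aa (0.221), and highest for Apoc3 (0.812) and Spink1 (0.783). The ratio of library 2 to library 1 was tighter, from 1.40 for Defa2 to 2.18 for Cela2a. Across the 50 genes this second ratio was larger for longer transcripts (Spearman's rho with exon length 0.58), whereas over 13184 other tested genes the correlation was -0.08. The ratio of library 3 to library 1 had a rho of -0.26 with length over the 50 genes and 0.09 over the others. These correlations run across genes of the same libraries, which are not independent, and they serve only as descriptions.

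Dorsal levels were set against the ventral ones as a description, since the genes were chosen on this contrast and no other genes were treated in this way. For 41 of the 50 genes the dorsal mean lay between 0.05% and 0.5% of the ventral mean, with a median of 0.190% over all 50. Besides the 3 genes with no dorsal count, the exceptions were all above that range: Fcgbp at 5.24%, Muc2 at 1.62%, Jchain at 1.54%, Vil1 at 1.39%, Sis at 0.904% and Krt20 at 0.830%. Apoa1 had its largest dorsal value in library 3, at 3.91 CPM, against 1.03 and 0.864 CPM in the other dorsal libraries. Dorsal values of most genes rest on fewer than 60 counts over 3 libraries, so differences among them are poorly measured.

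**Figure D4:**
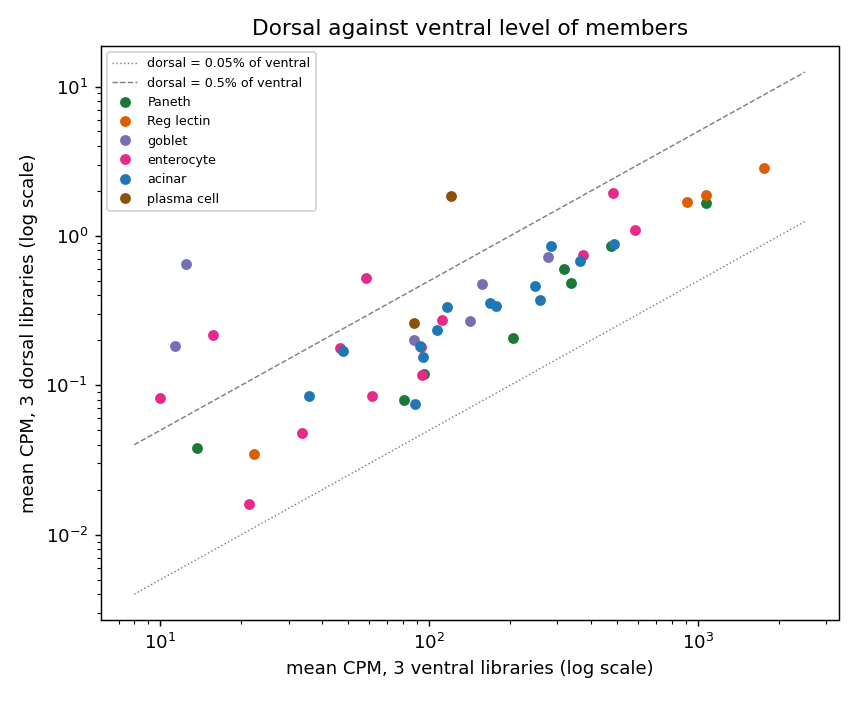
Mean CPM over the 3 dorsal libraries (y axis, log scale) against mean CPM over the 3 ventral libraries (x axis, log scale) for the 47 of the 50 genes with a dorsal count, coloured by class, with lines at 0.05% and 0.5% of the ventral level. Of these, 41 points lie between the lines, and Fcgbp lies farthest above them, with a ventral mean of 12.4 CPM and a dorsal mean of 0.652 CPM.

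Promoters of the genes were searched for motifs as a description. Whether motifs bear on the shared variation among the ventral libraries was not tested. In RefSeq's table for GRCm38.p6, 38 of the 50 genes had an entry. The 150 bases before the start site are shown for the gene of each of 6 classes with the highest level per length that had an entry, 5′ to 3′ on the gene's strand. The start site is RefSeq's and can lie inside the GENCODE gene. Capitals mark the motifs searched: TATAAA (the TATA box), CATAAA (the core bound by the intestinal factors Cdx1 and Cdx2), GTTAAT (a part of the site of Hnf1 factors), and CACCTG and TTTCCC (the boxes bound by the acinar factor PTF1), each on both strands.
Defa30, chr8:21134500-21134649, plus strand: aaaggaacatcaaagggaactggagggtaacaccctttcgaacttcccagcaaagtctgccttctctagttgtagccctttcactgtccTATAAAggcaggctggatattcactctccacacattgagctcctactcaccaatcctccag
Reg3b, chr6:78370735-78370884, plus strand: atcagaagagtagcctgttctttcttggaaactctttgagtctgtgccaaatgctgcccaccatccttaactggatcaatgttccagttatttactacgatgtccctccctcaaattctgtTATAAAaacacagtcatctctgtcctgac
Agr2, chr12:35992775-35992924, plus strand: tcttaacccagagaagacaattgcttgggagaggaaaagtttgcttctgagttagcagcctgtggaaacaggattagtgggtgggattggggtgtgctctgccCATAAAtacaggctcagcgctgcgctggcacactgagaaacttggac
Fabp1, chr6:71199729-71199878, plus strand: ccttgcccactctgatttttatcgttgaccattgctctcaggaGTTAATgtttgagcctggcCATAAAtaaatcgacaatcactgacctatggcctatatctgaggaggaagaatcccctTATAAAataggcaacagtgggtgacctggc
Prss2, chr6:41521626-41521775, plus strand: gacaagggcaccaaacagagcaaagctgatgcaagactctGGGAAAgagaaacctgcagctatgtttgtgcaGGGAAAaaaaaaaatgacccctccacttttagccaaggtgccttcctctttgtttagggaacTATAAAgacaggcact
Jchain, chr5:88527898-88528047, minus strand: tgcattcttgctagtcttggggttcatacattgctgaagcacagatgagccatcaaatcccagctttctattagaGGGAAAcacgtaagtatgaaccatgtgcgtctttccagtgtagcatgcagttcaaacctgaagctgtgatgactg
Over the 250 bases before the start site, TATAAA was in 18 of the 38 promoters and in 12.97% of all 27025 promoters in the table. CATAAA was in 8 of 38 and 11.1% of all, GTTAAT in 4 of 38 and 6.52% of all, CACCTG in 14 of 38 and 17.1% of all, and TTTCCC in 14 of 38 and 21.9% of all. The acinar motif CACCTG was in 7 of 11 acinar promoters and in 7 of 25 promoters of the gut classes. A match describes letters in this window and is not a binding site.

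Genes outside the list were then read for the same cell types. These lists were drawn up with earlier results of these data known. Over 16 lists of gut, pancreas and immune genes, 249 further genes were listed, 241 were in the table and 145 were tested, of which 105 were higher in ventral, 1 was lower and 39 did not pass (edgeR quasi-likelihood test, Benjamini-Hochberg adjusted p under 0.05). Of all 14701 genes tested, 9.54% were higher in ventral. The other 96 listed genes in the table were below the minimum of 1 CPM over all libraries. Of the 145, 111 had a dorsal mean under that minimum and reached it through the ventral libraries, so the number higher is in large part fixed by the minimum and supports nothing. Of 21 further genes listed under Paneth cells 15 were tested, all with a dorsal mean under 1 CPM, and these were higher. Defa36 was at 152 ± 75.6 CPM in the ventral libraries and 0.245 ± 0.229 CPM in the dorsal ones (log2 fold change 9.29, standard error 0.74, adjusted p = 0.000193, edgeR). Guca2b, the precursor of the gut peptide uroguanylin, was also on this list, but its cell of origin was not tested. Its level was 128 ± 83.03 CPM in the ventral libraries and 0.243 ± 0.115 CPM in the dorsal ones (log2 fold change 8.96, standard error 0.74, adjusted p = 0.000227, edgeR). AY761184, a defensin-related sequence, was at 184 ± 91.1 CPM in the ventral libraries and 0.411 ± 0.118 CPM in the dorsal ones. Goblet cell genes were higher in 8 of 10. They included the cell-surface mucin Muc13 at 64.00 ± 38.5 CPM in the ventral libraries and 0.187 ± 0.0808 CPM in the dorsal ones. Guca2a, the precursor of guanylin, was at 30.9 ± 23.3 CPM in the ventral libraries and 0.0502 ± 0.0473 CPM in the dorsal ones. Retnlb, a bactericidal resistin-like protein, was at 29.3 ± 14.04 CPM in the ventral libraries and 0.0691 ± 0.0606 CPM in the dorsal ones.

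Enterocyte genes were higher in 41 of 47, against 9.54% of all genes tested. Of the 47, 39 had a dorsal mean under 1 CPM, as had 14 of the 20 acinar genes below. They reached the minimum through the ventral libraries, so these counts support nothing. Prap1, a secreted protein of the small intestine, was the highest of these at 773 ± 438 CPM in the ventral libraries and 1.304 ± 0.4900 CPM in the dorsal ones (log2 fold change 9.22, standard error 0.62, adjusted p = 0.000102, edgeR). Tm4sf20 was at 174 ± 98.4 CPM in the ventral libraries and 0.322 ± 0.0784 CPM in the dorsal ones. Acinar genes were higher in 17 of 20, with the ribonuclease Rnase1 at 332 ± 193 CPM in the ventral libraries and 0.546 ± 0.166 CPM in the dorsal ones and Sycn, a protein of zymogen granules, at 180.0 ± 111 CPM in the ventral libraries and 0.242 ± 0.1504 CPM in the dorsal ones. Reg2, another acinar lectin, differed from the 50 genes in its dorsal level, with 169, 321 and 72.7 CPM in the ventral libraries, against 10.8, 8.21 and 17.6 CPM in the dorsal libraries (log2 fold change 3.94, standard error 0.57, adjusted p = 0.0029, edgeR).

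Regulators of these programmes were counted as well. Of 9 tested gut and pancreas transcription factors 4 were higher in ventral. Of the 9, 7 had a dorsal mean under 1 CPM and reached the minimum through the ventral libraries, so this count supports nothing. Of all 14701 genes tested, 9.54% were higher in ventral. Klf5, a factor of proliferating epithelium, was at 17.8 ± 5.71 CPM in the ventral libraries and 2.504 ± 1.303 CPM in the dorsal ones. Hnf4g was at 6.48 ± 5.37 CPM in the ventral libraries and 0.161 ± 0.157 CPM in the dorsal ones. Isx, a factor of the intestine that represses vitamin A uptake, was at 5.43 ± 1.799 CPM in ventral libraries with no dorsal count. Klf5 (log2 fold change 2.83, standard error 0.51, adjusted p = 0.00749, edgeR) and Isx had ratios of library 3 to library 1 of 1.17 and 1.48, unlike the 50 genes. The call of Hnf4g was lost in at least 1 alternative fit. The intestinal master factor Cdx2, named here after its values were seen, had 5, 11 and 0 counts in the ventral libraries and 1 count over the dorsal libraries, and was below the minimum for testing.

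Among immune genes, Igkc, the kappa light chain constant region, was at 384, 691 and 214 CPM in the ventral libraries, against 0.611, 0.816 and 0.8497 CPM in the dorsal libraries (log2 fold change 9.14, standard error 0.56, adjusted p = 8.53e-05, edgeR). With Iglc1, a lambda constant region at 14.8 ± 13.6 CPM in the ventral libraries and 0.0313 ± 0.0542 CPM in the dorsal ones, it was 1 of 2 plasma and B cell genes that were higher in ventral of 5 tested. MHC class II genes were higher in 3 of 5. Cd74, the invariant chain, was at 15.4 ± 9.87 CPM in the ventral libraries and 0.391 ± 0.596 CPM in the dorsal ones. H2-Ab1 was at 9.27 ± 2.46 CPM in the ventral libraries and 0.168 ± 0.0257 CPM in the dorsal ones. H2-Eb1 was at 3.78 ± 0.8503 CPM in the ventral libraries and 0.544 ± 0.189 CPM in the dorsal ones. The calls of Cd74 and H2-Eb1 were lost in at least 1 alternative fit. Of 4 tested T cell and intraepithelial lymphocyte genes 1 was higher, the chemokine Ccl5 at 6.95 ± 2.76 CPM in the ventral libraries and 0.282 ± 0.0548 CPM in the dorsal ones. Outside the small intestine and pancreas, 5 of 7 stomach genes were higher, against 9.54% of all genes tested. A dorsal mean under 1 CPM was found for 6 of these 7. The same held for 3 of the 5 plasma and B cell, 3 of the 5 MHC class II and 3 of the 4 T cell genes. Such genes reached the minimum through the ventral libraries, so these counts support nothing. The trefoil peptide gene Tff2 was at 61.6 ± 34.1 CPM in the ventral libraries and 0.107 ± 0.103 CPM in the dorsal ones. Gkn3, a gastrokine, was at 50.4 ± 25.5 CPM in the ventral libraries and 0.136 ± 0.0782 CPM in the dorsal ones. Gkn2 was at 6.96 ± 2.97 CPM in the ventral libraries and 0.0477 ± 0.04803 CPM in the dorsal ones. Of 7 islet genes 6 were below the minimum for testing, and the other, Ins2, was higher, at 8.18 ± 6.54 CPM in the ventral libraries and 0.0477 ± 0.04803 CPM in the dorsal ones. Of 18 liver genes 17 were below the minimum, and the other, Cps1, which is also made in the intestine, was higher, at 42.7 ± 20.4 CPM in the ventral libraries and 0.339 ± 0.08999 CPM in the dorsal ones. Of 5 colon genes 4 were below the minimum, and the other, Slc26a3, did not pass by edgeR, DESeq2 or limma, at 5.13 ± 4.09 CPM in the ventral libraries and 1.49 ± 0.577 CPM in the dorsal ones (log2 fold change 1.78, standard error 0.75, adjusted p = 0.156, edgeR). Its unadjusted p was under 0.05 by edgeR, and its adjusted p was 0.0173 without ventral library 3 and ran up to 0.5003 over the other alternatives. The colon gene Aqp8 was below the minimum for testing, at 0.197, 0.433 and 0 CPM in the ventral libraries.

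Genes of rarer gut cells were counted too. A dorsal mean under 1 CPM was found for 4 of 8 tested enteroendocrine, 1 of 3 crypt stem cell and 4 of 7 gut smooth muscle genes. These reached the minimum through the ventral libraries, so the numbers higher support nothing. Of all 14701 genes tested, 9.54% were higher and 7.14% lower in ventral. Of 8 tested enteroendocrine genes 2 were higher. Sct, the precursor of secretin, was at 6.43 ± 2.86 CPM in the ventral libraries and 0.199 ± 0.222 CPM in the dorsal ones. Neurog3 was at 15.2 ± 2.75 CPM in the ventral libraries and 0.0783 ± 0.136 CPM in the dorsal ones. Neurog3 did not share the order of the 50 genes, with 14.1, 13.2 and 18.4 CPM in ventral libraries 1, 2 and 3. Which cells its counts came from was not tested. Of 3 crypt stem cell genes 1 was higher, Olfm4 at 24.8 ± 16.3 CPM in the ventral libraries and 0.3904 ± 0.272 CPM in the dorsal ones. Neither of the 2 tested tuft cell genes passed by edgeR, DESeq2 or limma, and 0 had an unadjusted p under 0.05 by edgeR. Dclk1, also a neuronal gene, was at 398 ± 35.6 CPM in the ventral libraries and 328 ± 83.9 CPM in the dorsal ones. Sh2d6 was at 1.702 ± 1.47 CPM in the ventral libraries and 0.543 ± 0.437 CPM in the dorsal ones. Gut smooth muscle genes were higher in 4 of 7 and lower in 1, and the 3 with the highest ventral means did not share the order of the 50 genes. The other, Tagln, named after its values were seen, did, with 6.31, 8.003 and 4.17 CPM in ventral libraries 1, 2 and 3. Actg2, an enteric smooth muscle actin, had 3.896, 2.38 and 52.7 CPM in ventral libraries 1, 2 and 3, and Acta2 7.69, 12.5 and 41.4 CPM, both highest in library 3, where the 50 genes were lowest. Myh11 was at 6.42 ± 5.37 CPM in the ventral libraries and 0.177 ± 0.104 CPM in the dorsal ones. Smtn, the gene that was lower, was at 5.61 ± 1.74 CPM in the ventral libraries and 13.7 ± 0.655 CPM in the dorsal ones (log2 fold change -1.29, standard error 0.34, adjusted p = 0.0358, edgeR). The calls of Actg2 and Smtn were lost in at least 1 alternative fit. None of 5 adult globin and erythroid genes passed by edgeR, DESeq2 or limma, and 0 had an unadjusted p under 0.05 by edgeR. Hba-a2 was at 50.9 ± 13.1 CPM in the ventral libraries and 75.9 ± 21.1 CPM in the dorsal ones. Hbb-bs was at 51.7 ± 17.5 CPM in the ventral libraries and 66.7 ± 15.8 CPM in the dorsal ones.

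**Figure D5:**
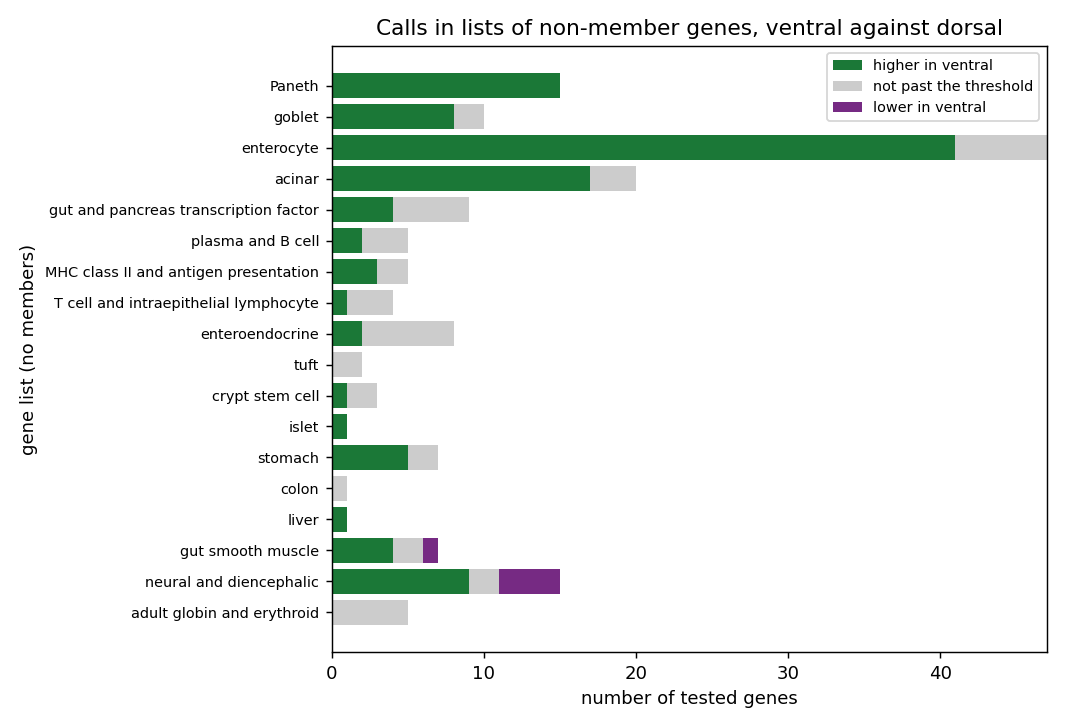
Number of tested genes (x axis) of each list of genes outside the 50 (y axis) that were higher in ventral, did not pass the threshold or were lower in ventral (edgeR quasi-likelihood test, adjusted p under 0.05). The enterocyte list is the longest with 41 of 47 higher, and the neural and diencephalic list, with 9 higher and 4 lower of 15, is the only one with more than 1 gene lower. Of the 145 tested gut, pancreas and immune genes, 111 had a dorsal mean under 1 CPM and reached the minimum for testing through the ventral libraries. Of all 14701 genes tested, 9.54% were higher and 7.14% lower in ventral.

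The wider set of genes that looked like the 50 in level was read in the same way. Of the 523 other genes called higher in ventral with at least 100 ventral counts and a dorsal mean under 0.5 CPM, the highest in ventral included Lgals2, Sycn, Tm4sf20, Defa36, Gsta1, Guca2b, Apoc2, Dmbt1 and Itln1. Lgals2, an intestinal galectin, was at 219 ± 133 CPM in the ventral libraries and 0.288 ± 0.1296 CPM in the dorsal ones. Gsta1, a glutathione transferase, was at 129 ± 74.4 CPM in the ventral libraries and 0.3602 ± 0.123 CPM in the dorsal ones. Apoc2, the activator of lipoprotein lipase, was at 123 ± 60.2 CPM in the ventral libraries and 0.1898 ± 0.0947 CPM in the dorsal ones. Each of those listed had more than 20 CPM in each ventral library. Dmbt1, a mucosal scavenger protein, was at 116 ± 60.4 CPM in the ventral libraries and 0.246 ± 0.185 CPM in the dorsal ones. Itln1, an intestinal lectin, was at 101 ± 79.4 CPM in the ventral libraries and 0.189 ± 0.0936 CPM in the dorsal ones. All 523 had a dorsal mean under 0.5 CPM, so they reached the minimum of 1 CPM for testing through the ventral libraries. The shares that follow are therefore descriptions and support nothing. Of the 523, 515 were present in each ventral library, and 385 of these (74.8%) had the order of libraries 2, 1 and 3. Of 830 other genes called higher in ventral with at least 0.5 CPM in dorsal, 218 (26.3%) had it. Both ratios among the ventral libraries fell inside the range of the 50 genes for 261 of the 523 (49.9%), for 82 of the 830 (9.88%) and for 569 of all 13440 other tested genes with at least 100 ventral counts (4.23%). Of the 15 neural and diencephalic genes 2 had the order of libraries 2, 1 and 3. The sum of the 15 in library 3 over library 1 was 1.02, which is weighted to the most abundant genes. The median gene of that list had a ratio of 1.30.

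The genes whose levels over the 3 ventral libraries were closest to the summed 50 genes were looked up among 7708 other genes with a ventral mean of at least 20 CPM. The call between regions was not used. Both the minimum and the likeness rest on the ventral libraries only. Genes under 20 CPM in ventral could therefore not enter, whatever their dorsal level. Likeness was the root mean square distance between centred log2 CPM values over 3 libraries. The closest 10 included Papss2, which makes the donor for sulphation (0.0263), Sprr2a2 (0.0320), Lgals2 (0.0384), Tmem45b (0.0442), Acsl5 (0.0459), Anxa2 (0.0465), the microvillus bundling gene Pls1 (0.0492), Tm4sf5 (0.0540) and Prap1 (0.0556). All of the closest 10 were higher in ventral, as were 43 of the 50 closest and 625 of all 7708. Sprr2a2, a small proline-rich epithelial protein, was at 354 ± 205 CPM in the ventral libraries and 0.758 ± 0.0888 CPM in the dorsal ones. Papss2 was at 96.1 ± 59.1 CPM in the ventral libraries and 1.28 ± 0.262 CPM in the dorsal ones. Acsl5, Pls1 and Anxa2 were also present in dorsal libraries, at 6.38 ± 1.92 CPM, 4.84 ± 0.527 CPM and 4.93 ± 2.46 CPM, and the calls of Acsl5 and Pls1 were lost in at least 1 alternative fit. With 3 libraries, likeness of this kind is a description.

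In the Smart-seq2 libraries of medial cortex, 38 of the 50 genes were listed at 0 TPM (transcript abundance scaled to a fixed total) in all 25 libraries, and an exact 0 in this kind of table may be a failed detection. Of the other 12, 9 reached 1 TPM in at least 1 library, and none was above 0 in more than 2 libraries. The highest values were 16.6 TPM for Tff3 and 16.2 TPM for Sis, each in 1 Axin2-null library, and 10.95 TPM for Reg3b in 1 wild-type library. Summed over the 50 genes, levels ran from 0 to 18.2 TPM with a median of 0 in the Axin2-null libraries and from 0 to 13.9 TPM with a median of 2.40 in the wild-type libraries, and 9 null and 5 wild-type libraries were at 0. All 6 defensins, Lyz1, Reg1, Reg3g, the trypsinogens, Pnlip and Igha were listed at 0 throughout. For scale, of the 15 neural and diencephalic genes, Nes, Tubb3 and Tcf7l2 reached 1 TPM in 25 of 25 libraries. Nkx2-1, Nr5a1, Shh and Otp were at 0 in all 25, and the others reached 1 TPM in 1 to 24 libraries. How well genes at low levels were detected was not tested. The bulk counts, divided by exon length and scaled to the same total, gave a sum over the 50 genes of 35607, 56937 and 19201 in the ventral libraries and 76.3, 82.9 and 98.0 in the dorsal libraries. The tables were normalised separately and differ in region, age and method, so they are set side by side without a test.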

How the data were processed

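The 6 bulk libraries and 25 Smart-seq2 libraries were used, grouped by their labels. The submitters' processing notes name Trimmomatic, STAR 2.7.0a, featureCounts and the builds GRCm38 and mm10, without a role for any. The authors deposited the bulk values under the name TPM, but the columns sum to between 17604411 and 20838226 and not to a fixed total. Of values above 0, 46.6% are whole within 0.0001. They were therefore read as estimated counts deposited by the authors, and the depths given here are sums of these values after rounding. The Smart-seq2 values are TPM as deposited by the authors, which keep no depth, and its columns show a genotype but no sample number. Whether counting used strand is not given in the sources used here.

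Rounded counts entered edgeR 4.0.16 (TMM, quasi-likelihood F test, R 4.3.3) for 14701 genes whose mean reached 1 CPM, with p-values adjusted by the Benjamini-Hochberg method at 0.05, and the code was tested on simulated data. DESeq2 1.42.0, limma 3.58.1, other scaling, no filter, a replicate term and leaving out each library were tried. Symbols (34581 of 34865 identifiers), coordinates and exon lengths come from GENCODE M21 on GRCm38. Exon length is the union of all annotated exons of a gene, so rankings per length depend on the annotation. The 50 genes and all lists were chosen with earlier results of these data known. Named besides the 50 were up to 3 called genes per direction of each list with the highest mean, or the 2 highest where none was called, the 10 genes with the highest ventral mean among those called with under 0.5 CPM in dorsal, and the 10 closest in profile; predicted genes were not named, and some genes that this rule names are not reported here. Folds against no count use a floor of 3 counts over the region. Libraries of a region differed by more than sampling noise (chi-square per gene 8.69 to 137) and each was counted, but nothing says that they came from separate embryos, so p-values measure a spread that may be technical.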

Additional observations from a re-analysis of the deposited data

How the results depend on the processing

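All 50 genes were called higher in ventral under each of the 11 alternatives, which, as they were chosen on this contrast, adds no support. Leaving out 1 library at a time, the number of genes higher in ventral (1403) ran from 839 to 1928, the number lower (1050) from 500 to 1695, and the further gut, pancreas and immune genes higher (105 of 145) from 92 to 121. The numbers higher and lower were 920 and 530 without ventral library 1, 899 and 599 without ventral library 2, 839 and 500 without dorsal library 1, and 909 and 561 without dorsal library 2, and 1695 were lower without ventral library 3; the cause was not tested. A fit with the replicate number as a block gave 1083 higher, 924 lower and 92 of the further genes. Same-numbered libraries deviated together only weakly (correlations 0.099, 0.148 and 0.165), so the numbers were not taken to pair them.

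The summed level in ventral library 2 over library 1 (1.75) was 1.76 with DESeq2's size factors and 1.73 as the median over genes. In library 3 over library 1 (0.477) it was 0.471 with DESeq2's size factors, 0.496 with total counts and 0.438 as the median over genes. At 10 TPM or more, 3 of the 50 genes were detected in Smart-seq2 libraries, against 9 at 1 TPM. The mean ventral share of counts (1.16%) ran from 0.803% to 1.47% with a library left out. Of 56 further genes named, 51 were called and 43 stayed called under all 11 alternatives. The 8 that missed the threshold in at least 1 alternative were Hnf4g (largest adjusted p 0.0709), Cd74 (0.0813), H2-Eb1 (0.0975), Actg2 (0.106), Smtn (0.150), Stmn2 (0.0592), Acsl5 (0.0674) and Pls1 (0.0680), by edgeR, DESeq2 or limma, and none reversed. Of the 5 not called, Slc26a3 passed without ventral library 3 (adjusted p = 0.0173, edgeR). With 3 libraries a region and possibly shared embryos, small differences among the 50 genes were not detectable.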

Other observations

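The genes in this paragraph were chosen after their values were seen. Of 7 immunoglobulin heavy chain constant genes other than Igha (87.8 ± 42.5 CPM), Ighg2c was at 1.27 ± 0.474 CPM and Ighm at 1.21 ± 0.594 CPM in ventral libraries, none had a ventral mean above 1.27 CPM, and Ighg3 and Ighe had no count in any of the 6 libraries. The colon gene Car1 had no count in any library. Alb, the liver's serum albumin, had 1, 8 and 49 counts in ventral libraries 1, 2 and 3, highest in the library where the 50 genes were lowest. The ileal bile acid-binding gene Fabp6 had 1, 0 and 0 ventral counts, while its relatives Fabp1 and Fabp2 were at 678 ± 412 CPM per kb and 604 ± 316 CPM per kb in ventral libraries.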
